A study of Ascaridia galli and Trichostrongylus colubriformis with 4 samples.

Results

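Ascaridia galli is the large roundworm of the chicken intestine. Its transcripts were studied here through the unigenes, assembled transcript sequences, whose best protein hit lay in an ascarid: a protein of Ascaris, Toxocara, Anisakis, Parascaris or Ascaridia. There were 28171 such ascarid-like unigenes among the 150798 unigenes of the A. galli table (18.7%), and they made up 50.9% of the unigenes with any protein hit. A unigene counted as measured when the mean of both conditions was at least 10 normalized counts, and 27387 of the 28171 (97.2%) were. The rule reads the organism of the best hit and no count.

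Whole worms from the intestines of slaughtered chickens were exposed in vitro to a cold-macerated water extract of Pottia lanceolata, a moss, or to double distilled water as the control, were kept in RNAlater, and their RNA was sequenced. There was 1 library of extract-treated worms and 1 of control worms, so no test between conditions was possible and no value has a replicate error. The bench assay in the labels used 6 worms per dish and extract at 10, 20 and 50 mg/ml. For the sequenced worms, no source used here gives the dose, the exposure time, the sex or how many were pooled. The table calls its libraries condition A and condition B without saying which is extract and which is water, so every ratio below is condition B over condition A and none is a direction of response to the extract.

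Ascarids are large, long-lived gut nematodes in which a small number of tissues make most of the RNA: a muscular body wall under a collagen cuticle, an intestine one cell thick, and long paired gonads. Their body fluid is rich in lipid-carrying proteins, and they secrete inhibitors of the host's digestive proteases, which are known from Ascaris of the pig. Male worms make crawling sperm whose movement rests on major sperm protein (MSP), and adult muscle runs an anaerobic metabolism in which malate is split between oxidation and reduction in the mitochondria.

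Whole reads could be recovered from the deposited values and came to 87659967 for condition A and 69118994 for condition B. Ascarid-like unigenes held 61.2% of the normalized counts of condition A and 52.6% of those of condition B. Unigenes with a best hit in another organism held 23.4% and 31.4%, and unigenes without a hit 15.4% and 16%. All unigenes listed had at least 1 read in both conditions, so a transcript seen in a single condition is not part of these values. The 95% counting intervals given below are exact binomial intervals of the ratio on read pairs; they cover counting error and not variation between worms.

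The hits were split between a pair of genera. Ascaris gave 14208 members (50.4%), of which 11821 were Ascaris suum, the pig roundworm, and 2387 Ascaris lumbricoides. Toxocara gave 12599 (44.7%), 12598 of them Toxocara canis of the dog. Anisakis simplex, the herring worm, gave 1352 (4.8%), and Parascaris gave 7. Ascaridia itself gave 5, yet these 5 held 6.8% of the members' counts in A and 7.59% in B. They were the lipid binding protein ag-50 (95.1% identity to the database entry), cytochrome c oxidase subunit 1 (90%), cytochrome b (82.6%), a tubulin beta chain (92.0%) and a short match to a prostaglandin-H E-isomerase chain (96.3%). None of the 5 matched an entry of the labelled species exactly.

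Over all members the median identity to the hit protein was 62.3% (quartiles 50.8% to 73.3%), against 52.0% for unigenes with a hit in another organism. Many members were pieces of a transcript. The 28171 members pointed to 13688 proteins, 6319 of these with a single unigene and 64 with 10 or more, and the median alignment covered 59.4% of the hit protein. At least 90% was covered in 7153 members (25.4%). Members that share a hit protein share a source or a family and are not independent. An informative product name was given for 17759 members (63.0%), which carried 5494 different names; the 10412 without one held 25.7% of the members' counts in A and 25.8% in B.

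A small share of the unigenes held most of the counts. In condition A 267 unigenes held 50% of the members' counts, and in condition B 234 did. The 10 most abundant held 16.4% and 16%. By the mean of both conditions as deposited, the most abundant named member was lipid binding protein ag-50, a lipid carrier of the worm's body fluid, with 1694434 normalized counts in A and 715033 in B, or 3.12% and 1.99% of the members' counts. In condition B it stood below cytochrome c oxidase subunit 1, the C-type lectin and cytochrome b. Major sperm protein followed in condition A with 1480748 counts, and had 417202 in condition B. Cytochrome c oxidase subunit 1, a mitochondrially encoded subunit of the respiratory chain, had 1151710 and 1151180. A C-type lectin protein, a carbohydrate-binding protein, had 877068 and 858922, and cytochrome b 718220 and 767307. These are totals per transcript. Lengths of the unigenes are not in the table, and divided by the length of the hit protein the order changed. The MSP transcript had 10700 counts per residue in condition A, ag-50 had 3340 and cytochrome c oxidase subunit 1 had 2210. A chymotrypsin/elastase isoinhibitor, aligned over 42% of its hit protein, had 2080. These are examples and not a full ranking: an unnamed member had 3750 and MSP isoform beta 2530.

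**Figure D1:**
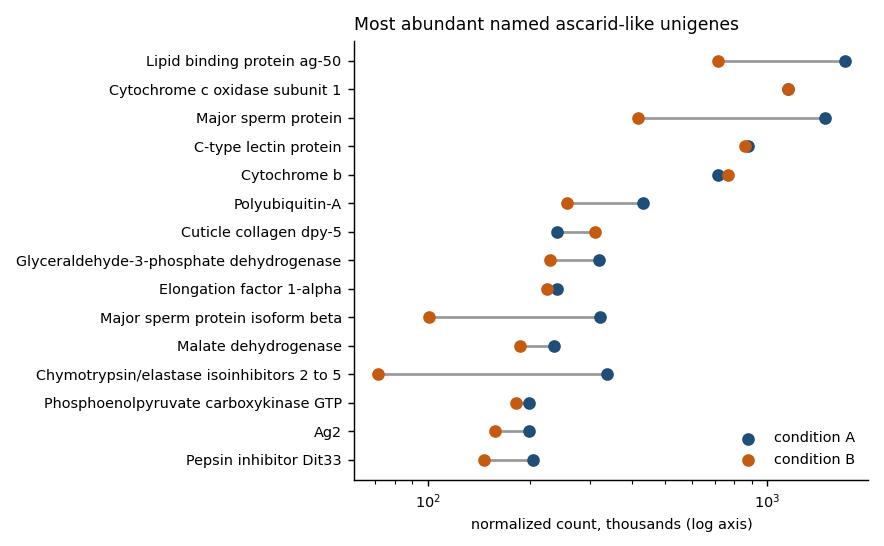
Normalized counts in units of 1000, on a log axis, of the 15 most abundant named ascarid-like unigenes with 1 unigene per product name; each dot is 1 library. The MSP transcripts, ag-50 and the isoinhibitors 2 to 5 lie far lower in condition B as deposited, while cytochrome c oxidase subunit 1 has the same count in both; scaling on total counts would move every dot of condition B up by 0.38 on the log2 scale.

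By product name, 7980 members fell into 55 lists of known functions, grouped into 10 themes. Gut and nutrition (lipid carriers, peptidases, protease inhibitors and lectins) was the theme with the largest share: 252 unigenes held 10.8% of the members' counts in both conditions. The lectin list held 4.43% in A and 5.74% in B, and the lipid carriers, mostly ag-50 of the body fluid, 3.61% and 2.42%. The theme groups product names, and how much of its counts came from the gut was not measured. Protein synthesis and turnover held 8.34% in condition A and 8.91% in condition B, with 1017 unigenes. Energy metabolism held 8.12% and 10.3%. Reproduction held 7.79% and 3.54%, the widest difference between the conditions of any theme. Body structure held 4.14% and 5.02%. Signalling had the most unigenes, 1925, and held 2.61% and 2.44%. Shares within the members do not depend on how the libraries are scaled, so these differences stand at any scaling, but a lower share of 1 theme raises the share of all others.

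**Figure D2:**
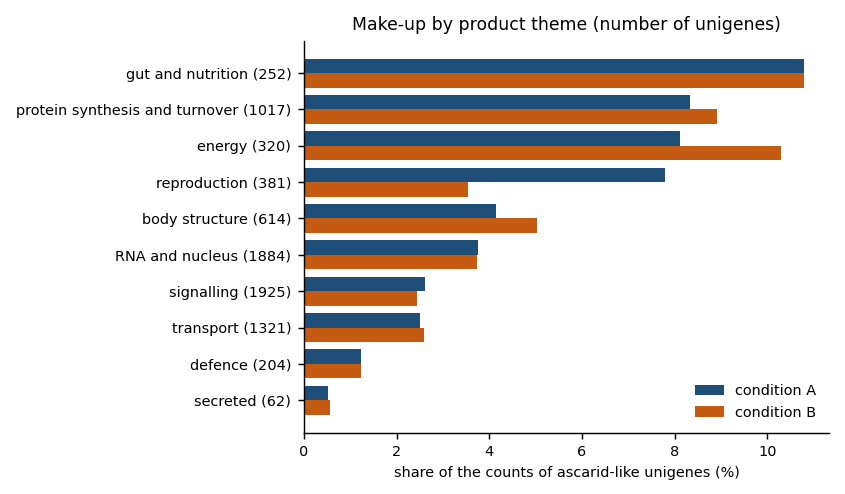
Share of the ascarid-like unigenes' counts held by each product theme, in percent, with the number of unigenes in brackets; bars start at 0 and each bar is 1 library. Reproduction takes 7.79% in condition A and 3.54% in condition B, energy 8.12% and 10.3%, and gut and nutrition 10.8% in both.

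Between the conditions, most ascarid-like transcripts were close to each other. As deposited, 827 of the 27387 measured members had at least 4-fold more counts in condition B (3.02%; 20.9% of all 130139 measured unigenes were) and 2058 were at least 4-fold lower (7.51%; 8.81% of all measured unigenes were). The log2 ratio had a median of -0.58 (quartiles -1.13 to -0.04), and 62.6% of members lay within 2-fold. Unigenes with a best hit in another organism had a median of 0.98, with 32.5% higher and 4.75% lower, and those without a hit 0.23. Near the 4-fold limit, 370 members lay within 0.1 log2 inside it and 413 within 0.1 outside.

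The balance between higher and lower members was set by the scaling. With both libraries scaled to the same total over all unigenes, which adds 0.38 to each log2 ratio, 1258 members were higher and 1178 lower and the median was -0.19. With both scaled to the same total over the ascarid-like unigenes alone, which adds 0.60, 1535 were higher and 856 lower and the median was 0.02. The share of the calls that were higher was 28.7% as deposited, 51.6% under total scaling and 64.2% under scaling over the members. No direction is therefore given for the worm's transcripts as a whole. Since each scaling adds 1 constant to every ratio, it leaves the gap between the members and the unigenes with other hits nearly as it is. Over the 4 scalings, 32.5% to 43.1% of those unigenes and 3.02% to 5.54% of members were at least 4-fold higher in B.

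The spread narrowed with abundance. Among the 3632 members with a mean of 10 to 30 normalized counts, 12.4% were at least 4-fold higher, 11.3% lower and the median was 0.02. From 300 to 1000 counts these were 0.391%, 5.82% and -0.71 (6131 members). Above 10000 counts, 565 members had a median of -0.52, with 7 higher and 17 lower. The median of the other-hit unigenes came close to that of the members from 300 counts up. It was 1.41 at 10 to 30 counts, 1.70 at 30 to 100, and -0.67 at 300 to 1000. Their share at least 4-fold higher stayed above that of the members. It was 10.0% at 300 to 1000 counts and 14.5% above 10000, against 0.391% and 1.24% of members. Members with a closer hit differed less. In the band of lowest identity (up to 50.8%) 11.1% were at least 4-fold lower and 4.14% higher, and in the band of highest identity (from 73.3%) 4.35% and 2.68%. The median of the mean count was 171 in the lowest band and 253 in the highest; its part in the difference was not tested.

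**Figure D3:**
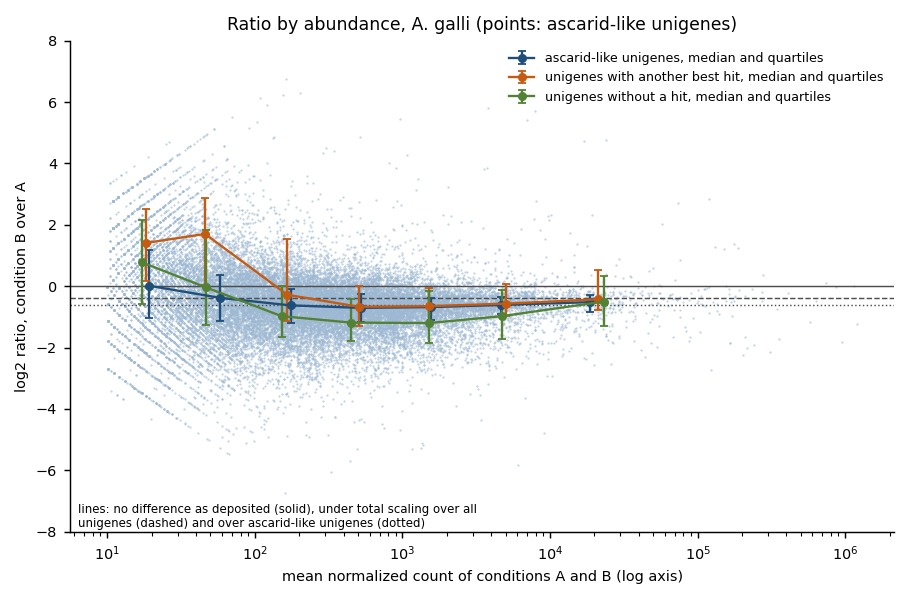
Log2 ratio of condition B over condition A against the mean normalized count on a log axis; points are ascarid-like unigenes, and lines with bars are medians and quartiles in bins of abundance for these, for unigenes with another best hit and for unigenes without a hit. The ascarid-like medians lie between 0.02 and -0.71 as deposited, and the other-hit medians go from 1.70 at 30 to 100 counts to -0.67 at 300 to 1000; the dashed and dotted lines show where no difference would lie under the total scalings.

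By genus, Ascaris hits had a median of -0.57 (2.51% at least 4-fold higher, 6.4% lower) and Toxocara hits -0.59 (2.99% and 8.72%). Anisakis hits stood out in the higher direction, with 113 of 1274 measured at least 4-fold higher (8.87%) and 104 lower (8.16%), at a median of -0.53. Part of the 113 lay on a few proteins of that species without a name. One of 2146 residues was the best hit of 43 measured unigenes, of which 21 were higher and 0 lower, with a median of 1.92. These 43 were rare: their counts summed to 482 in condition A and 1706 in condition B. At a mean of 10 to 30 counts, 12.4% of all members were at least 4-fold higher. One of 244 residues was hit by 7 unigenes, all at least 4-fold higher, which summed to 4395 and 94572, over alignments of 21 to 81 residues. One of 104 residues was hit by 8, of which 7 were higher, with sums of 8125 and 52752. These 3 proteins were singled out after the values were seen. The protein of 2146 residues also set the extreme of the deposited gene ontology terms: cation transmembrane transporter activity had the highest median (0.30) of the 133 terms with at least 50 measured members, with 26 of 100 higher, and 43 of the 100 were hits to that protein.

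The lists were read against the median of all members, because the distance between a list and that median hardly depends on the scaling. Of the 55 lists, 39 had a median within 0.2 of it on the log2 scale, 4 lay more than 0.5 below it and 0 more than 0.5 above. Each list median was below 0 as deposited, and 46 of the 55 were under total scaling, but only 18 were under scaling over the members. All counts of members at least 4-fold apart below are as deposited, beside 3.02% higher and 7.51% lower over all members.

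**Figure D4:**
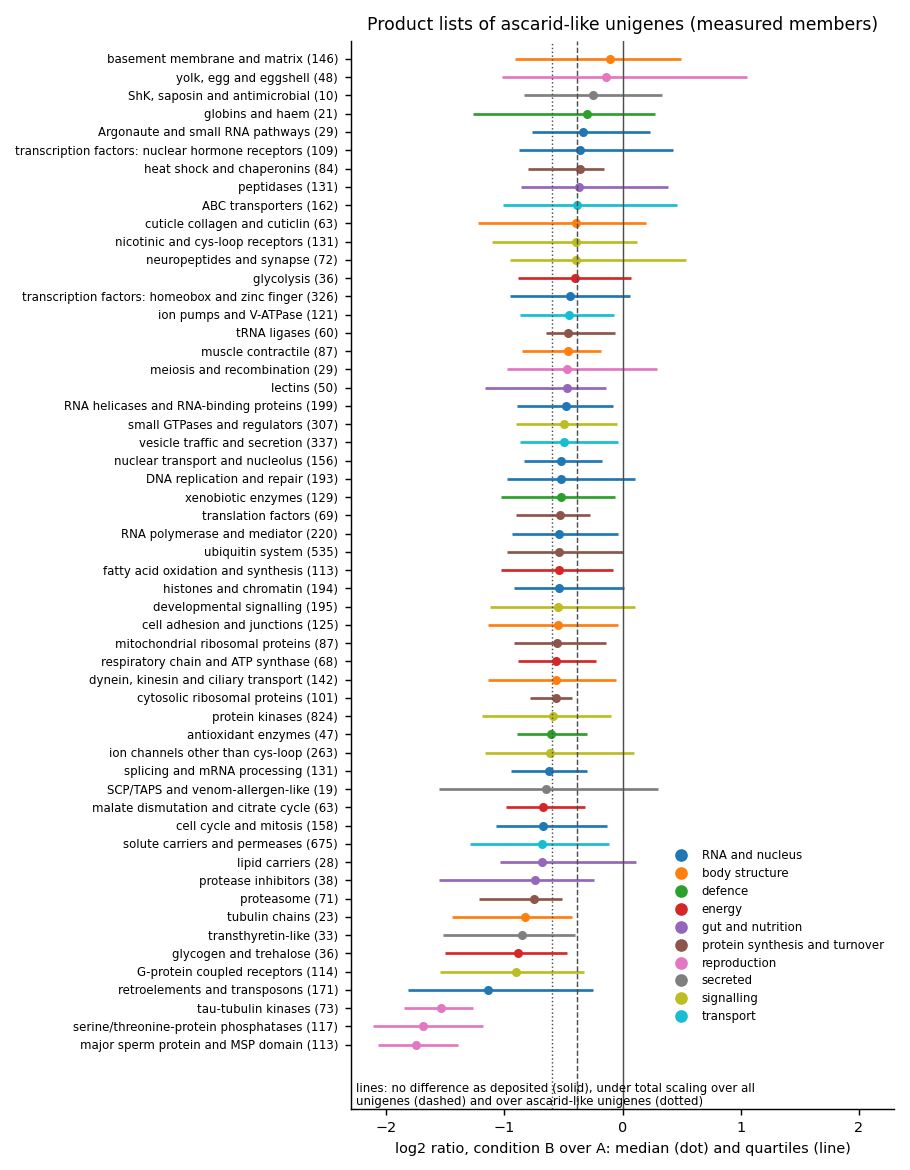
Median (dot) and quartiles (line) of the log2 ratio, condition B over condition A, for the 55 product lists, with the number of measured members in brackets and colours by theme. The 3 lists at the bottom, of MSP, serine/threonine-protein phosphatases and tau-tubulin kinases, lie from -1.54 to -1.75 and stay below 0 at all scalings drawn; most others lie near -0.58, and where no difference falls (vertical lines) depends on the scaling.

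Of the 10 themes, reproduction made the sharpest contrast, and MSP carried most of its counts. The lists were built from product names, and their place in the tissues of A. galli was not measured. The phosphatases and tau-tubulin kinases were filed under reproduction by product name alone. Product names outside these lists had medians as low, as given further below. MSP and MSP-domain products had 113 measured members with a median of -1.75 (-1.37 under total scaling, -1.15 under scaling over the members); 112 of the 113 were below 0 as deposited and 32 were at least 4-fold lower. They held 7.33% of the members' counts in A and 3.26% in B. Serine/threonine-protein phosphatases, a family whose PP1 type includes sperm proteins in Caenorhabditis elegans, had a median of -1.69 (117 members, 41 lower, 0 higher); for 108 of the 117 the name gives no subtype. The most abundant of them, at 99.7% identity, had 10643 and 7957 counts (-0.42; -0.04 under total scaling). Tau-tubulin kinases, a kinase family expanded in C. elegans, had -1.54 (73 members, 13 lower, 0 higher). For the most abundant MSP transcript the log2 ratio was -1.83, with an interval of -1.84 to -1.82, MSP isoform beta went from 321338 to 101224 (-1.67), and sperm-specific class P protein 32 from 29542 to 11041 (-1.42).

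Products of the female germ line and egg stood apart from these. The yolk, egg and eggshell list (48 members) had a median of -0.14 as deposited and 0.24 under total scaling, with 5 higher and 4 lower. It was a list of rare transcripts: its members held 0.0221% of the counts in A and 0.0231% in B. Rare members in general lay closer to 0: over all members the median was 0.02 at a mean of 10 to 30 counts and -0.38 at 30 to 100. Its summed counts did not follow the median: they went from 12029 to 8280, a log2 ratio of the sums of -0.54. Vitellogenin-6, a yolk protein precursor, had 4 unigenes, all rare and all with a ratio above 0. The most abundant had 309 counts in A and 993 in B (1.68, interval 1.42 to 1.96), and the next 30.4 and 146 (2.23, interval 1.45 to 3.17). Chondroitin proteoglycan 2, an eggshell component in C. elegans, had 2638 and 1539 (-0.78). Meiosis and recombination products had a median of -0.47 (29 members, 1 higher and 2 lower), which became 0.10 under scaling over the members. What share of each library came from male and female worms is not given, and its part in these values was not tested. In whole-worm RNA fewer cells of a type and less RNA per cell cannot be told apart.

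Among product names carried by at least 10 measured members, 202 in all, the lowest medians spread over enzymes, kinases, phosphatases and membrane proteins. Arginase, which splits arginine to urea and ornithine, was lowest at -2.04 (12 members, 6 lower), although its summed counts went only from 8679 to 5114. Receptor-type tyrosine-protein phosphatase C had -1.88 (11 members), and its counts went from 21252 to 6299. Tyrosine-protein kinase had -1.55 over 80 members from 36 hit proteins, with 19 lower, 0 higher and sums of 157841 and 54385. Receptor expression-enhancing protein, which shapes the endoplasmic reticulum, had -1.59 (27 members, 12 lower). Kelch-like protein 10, known in mammals for its role in male germ cells, had -1.57 (18 members, 9 lower). Battenin, a lysosomal membrane protein, had -1.79 (20 members, 9 lower), and sulfate permease family protein 3 had -1.77 (18 members, 7 lower), with sums of 16517 and 15290. All 7 medians stayed below -1 under total scaling. At the other end, 19 families had a median above 0 as deposited, led by 50S ribosomal protein L16 (2.28, 13 members), lysosomal-trafficking regulator (1.33, 10 members) and low-density lipoprotein receptor-related protein, an endocytic receptor (1.03, 14 members). The summed counts of the last pair did not follow their medians: those of the regulator went from 1054 to 763 and those of the receptor from 9870 to 10457.

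**Figure D5:**
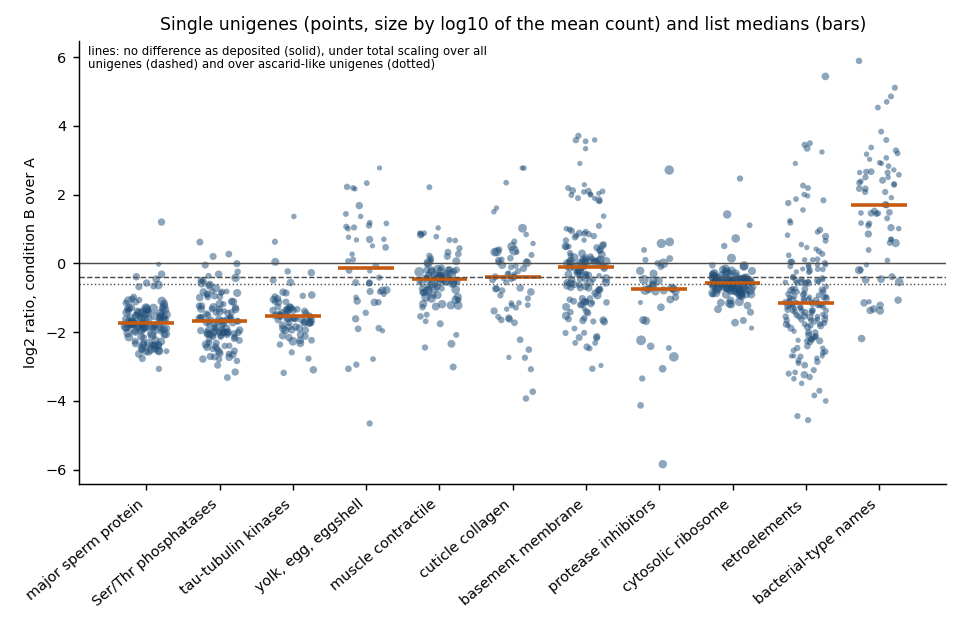
Log2 ratio of single unigenes, condition B over condition A, in 11 groups of products; point size grows with the log10 of the mean count and bars are medians. Nearly all MSP unigenes lie below every line of no difference, cytosolic ribosomal proteins form a tight cloud around -0.57, protease inhibitors reach from -5.84 to 2.72, and names of a bacterial or organelle type have a median of 1.70.

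Products of the gut and body fluid were abundant and uneven. The lipid carriers summed to 1963362 counts in A and 868518 in B, a log2 ratio of the sums of -1.18, and most of these counts were those of ag-50 (-1.24, or -0.86 under total scaling). The median over the 28 was -0.68, with 0 higher and 1 lower. Polyprotein ABA-1, the repeated lipid-binding allergen of ascarids, had 154722 and 83703 (-0.89). Apolipophorin, a large lipid-transport protein, had 33223 and 19902 in a unigene covering 99.7% of the hit (-0.74) but 4773 and 5046 in a second (0.08). A fatty acid-binding protein had 9570 and 5755 (-0.73), and Niemann-Pick C1 protein, of cholesterol export, 1862 and 787 (-1.24) in the most abundant of 5 unigenes, whose ratios ran up to 1.03.

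The protease inhibitors differed widely among themselves. Their 38 members had a median of -0.74, with 1 higher and 8 lower. Pepsin inhibitor Dit33, of an aspin family that blocks host pepsin, had 204121 and 146908 (-0.47; -0.09 under total scaling). Chymotrypsin/elastase isoinhibitors 2 to 5 had one unigene with 336738 counts in A and 71346 in B (-2.24, interval -2.26 to -2.22). Another unigene with the same best hit, also at 69.1% identity over 42% of the protein, had 19502 and 128080 (2.72, interval 2.68 to 2.75). These opposite ratios hold under each scaling used, and the pair together went from 356240 to 199426.

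Chymotrypsin/elastase isoinhibitor 1 was as uneven over its 8 measured unigenes. One had 214842 and 32596 (-2.72), one 156229 and 156518 (0.00) and one 39939 and 59647 (0.58). Cystatins, inhibitors of cysteine proteases, ranged as widely: one had 12004 counts in A and 208 in B (-5.84, interval -6.15 to -5.58), whose interval lay farther below 0 than that of any other named member. The next most abundant had 7591 and 2382 (-1.67) and another 4668 and 4012 (-0.22). Serpins, inhibitors of serine proteases, lay closer to the members' median, as with serpin B6 at 8128 and 4627 (-0.81). A rare serpin-like unigene had 293 and 15.8 (-4.13, interval -5.45 to -3.19).

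The worm's own peptidases had a median of -0.36 (131 members, 6 higher and 6 lower), which became 0.02 under total scaling. Aspartic protease 6 had 28415 and 25140 (-0.18), and the lysosomal enzymes legumain (31293 and 18973) and cathepsin D (28348 and 16538) had -0.72 and -0.78. Cathepsin l, a cysteine protease, had 31383 and 6950 (-2.17). Lectins had 2406558 and 2058922 counts in all, and the C-type lectin protein with 41.8% identity was the most abundant of them (-0.03; 0.35 under total scaling). Galectin, at 92.6% identity, had 24079 and 18334 (-0.39).

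Some small secreted defence peptides, those of the ASABF type, were not lower in condition B as deposited. ASABF peptides, the defensin-like antibacterial factors of Ascaris, had 5 measured unigenes with ratios from 0.26 to 1.02. ASABF-beta had 28518 and 34231 (0.26, interval 0.23 to 0.30), ASABF-delta 6257 and 8397 (0.42), and ASABF-gamma 423 and 860 (1.02, interval 0.79 to 1.27). The other 5 unigenes of the antimicrobial list lay below 0 as deposited and under total scaling: GH family 25 lysozyme 4 had 33678 and 18782 (-0.84) and cecropin-P2 had 806 and 438 (-0.88). Ag2 had 2 unigenes of nearly the same counts, 198371 and 158058 in one and 198951 and 157144 in the other. Transthyretin-like proteins, small proteins that nematodes secrete, had a median of -0.85 (33 members, 1 higher and 2 lower), from -0.29 for protein 46 to -1.84 for protein 15 for the most abundant unigene of each name.

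In the body wall, cuticle collagens and cuticlins made the only one of the 55 lists whose summed counts were higher in condition B as deposited. They summed to 359140 and 462005 counts, a log2 ratio of 0.36, and their share of the members' counts was 0.66% in condition A and 1.29% in condition B. The median over 63 members was -0.39 (0.22 under scaling over the members), with 3 higher and 7 lower, so the sum followed the abundant ones. Cuticle collagen dpy-5 had 240879 and 311874 (0.37), and collagen 155 had 38876 and 54582 (0.49). Cuticlin-1 went the other way, with a median of -0.74 over 33 unigenes (1 higher and 5 lower) and sums of 7374 and 3934. Contractile muscle proteins had a median of -0.46 (87 members, 1 higher and 4 lower); myosin-4 had 178261 and 150161 (-0.25) and myosin-3 172835 and 99404 (-0.80). Basement membrane and matrix products had the highest median of the 55 lists, -0.11 as deposited and 0.28 under total scaling, with 14 of 146 at least 4-fold higher (9.59%) and 11 lower. Its median was -0.44 over members with a mean of at least 100 counts. Hemicentin-1, a long extracellular matrix protein, had a median of 0.30 over 28 unigenes that ran from -3.07 to 3.71.

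In energy metabolism, cytochrome c oxidase subunit 1 and cytochrome b lay above the members' median and most lists close to it. Respiratory chain and ATP synthase products had a median of -0.56 (68 members, 3 higher and 1 lower) but kept nearly the same sum, 2199088 and 2150688, so that their share of the members' counts was 4.04% in condition A and 6.0% in condition B. Cytochrome c oxidase subunit 1 and cytochrome b made up 1869930 and 1918486 of these counts, and the other 69 unigenes of the list went from 329158 to 232202 (-0.50). Without this pair the energy theme held 4.68% and 4.91% of the members' counts. Glycolysis had a median of -0.40 (36 members) and malate dismutation and the citrate cycle -0.67 (63 members). Phosphoenolpyruvate carboxykinase, which makes oxaloacetate in the anaerobic pathway, differed between unigenes: the most abundant had 199435 and 182510 (-0.13), and 3 others had 43919 and 7483 (-2.55), 23622 and 7615 (-1.63) and 8463 and 3067 (-1.46). The flavoprotein subunit of succinate dehydrogenase had 67107 and 50150 (-0.42), and an iron-sulfur subunit had 10200 and 1556 (-2.71). Glycogen and trehalose products had a median of -0.88 (36 members, 0 higher and 5 lower). One unigene of trehalase, which splits trehalose, had 103828 and 32754 (-1.66), against a median of -0.92 over the 30 of that name. Glycogen debranching enzyme had 7828 and 7654 (-0.03, or 0.35 under total scaling).

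Protein synthesis and turnover had the narrowest quartiles of the 10 themes (-0.91 to -0.15). Cytosolic ribosomal proteins had a median of -0.57 with quartiles of -0.78 to -0.43 over 101 members, of which 1 was at least 4-fold higher and 0 lower. Translation factors had -0.53, tRNA ligases -0.46, mitochondrial ribosomal proteins -0.56 and the proteasome -0.75. Heat shock proteins and chaperonins had -0.36 (84 members, 0 higher and 1 lower), which became 0.02 under total scaling. These products stayed near the members' median: the difference of each of the 6 list medians from it was at most 0.21 in size.

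Nuclear and RNA products mostly lay near it, and retroelements lay farthest from it. Histones and chromatin had -0.54 (194 members), splicing and mRNA processing -0.62 (131) and Argonaute and small RNA pathways -0.34 (29). Retroelements and transposons had a median of -1.14 over 171 members, with 39 lower (22.8%) and 9 higher (5.26%), and -0.54 under scaling over the members. The spread was wide in both directions: a Pol polyprotein of a type-1 retrotransposable element had 42.6 and 1889 (5.44, interval 4.85 to 6.17), and an X-element polymerase had 50841 and 23947 (-1.09). Nuclear hormone receptors had -0.36 (109 members, 4 higher and 3 lower), or 0.04 under total scaling.

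Among receptors and transporters, G-protein coupled receptors had the lowest median, -0.90 (114 members, 3 higher and 19 lower). Nicotinic and related cys-loop receptors, which include targets of several deworming drugs, had -0.39 (131 members, 2 higher and 8 lower), or -0.01 under total scaling and 0.21 under scaling over the members; acetylcholine receptor alpha subunit 26 was the most abundant with 44956 and 20669 (-1.12). Ion channels of other kinds had -0.62 (263 members, 4 higher and 21 lower). ABC transporters, the ATP-driven pumps of lipids and drugs, had -0.38 (162 members) with 13 higher (8.02%) and 13 lower (8.02%). One unigene of multidrug resistance protein pgp-3 had 8333 and 9993 (0.26). The 18 measured unigenes of that name ran from -3.029 to 4.585, with a median of -0.22, 3 higher and 4 lower. A rare unigene of multidrug resistance-associated protein 4 had 4.06 and 203 (5.33, interval 3.76 to 8.71). It aligned to only 6.42% of its hit protein, at 45.6% identity. Solute carriers had -0.68 over 675 members, with 16 higher and 58 lower. Enzymes of xenobiotic metabolism had -0.52 (129 members, 6 higher and 7 lower), with glutathione S-transferase 1 at 16606 and 21449 (0.37) and glutathione s-transferase 2 at 28375 and 16707 (-0.76). The 11 measured unigenes named glutathione S-transferase without a number all lay below 0 as deposited, with sums of 4279 and 2051. Their median was -0.27, or 0.11 under total scaling. Antioxidant enzymes had -0.61 (47 members) and myoglobin, an oxygen-binding globin, had 66212 and 31879 (-1.05).

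Among named members, those with the largest differences in the higher direction mostly had few counts in condition A. Ranking by the ratio itself favours low counts in condition A here, and low counts in condition B in the lower direction. When members with an informative name were ordered by the lower end of their interval, the Pol polyprotein came first, ahead of the quinone-synthesis methyltransferase ubiE (4.06 and 399 counts; 6.31, interval 4.75 to 9.67) and the RNA-particle assembly factor NAF1 (3.04 and 306; 6.25). A lipid-transfer protein by name, steroidogenic acute regulatory-like protein 1, had 33.5 and 1005 (4.87, interval 4.24 to 5.77). Dehydrogenase/reductase SDR family member 1 had 209 and 2350 (3.49). Among members at least 4-fold higher, the most abundant named ones after the isoinhibitor were coiled-coil and C2 domain-containing protein 1, with 22603 and 91554 (2.02), and protein abnormal spindle, a spindle-pole protein, with 3569 and 15994 (2.16). UDP-glucuronosyltransferase, which conjugates lipophilic compounds, had 1094 and 4766 (2.12) in this unigene, against a median of -0.60 and sums of 21511 and 25414 over the 30 measured unigenes of that name, and the kinase sgk-1 had 947 and 4011 (2.08). The 2.02, 2.12 and 2.08 lie just past the limit.

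In the lower direction some of the largest differences lay in enzymes with many counts in condition A. After cystatin came the reductase FabG, a short-chain dehydrogenase, with 17497 and 632 (-4.79, interval -4.96 to -4.63). A unigene whose best hit was a Toxocara canis protein named plasma kallikrein, at 29.0% identity, had 1849 and 71.0 (-4.68), and carbonyl reductase NADPH 1 had 6531 and 314 (-4.38). A ligand-gated ion channel 50 had 431 and 13.8 (-4.87). Branched-chain-amino-acid aminotransferase, the first step in the breakdown of branched-chain amino acids, had 18205 and 2374 (-2.94) and 16262 and 3168 (-2.36) in a pair of unigenes with the same hit, while its cytosolic form had 11208 and 10093 (-0.15). Tyrosine-protein phosphatase non-receptor type 12 had 16985 and 2228 (-2.93). Under total scaling the second aminotransferase unigene lay just inside 4-fold (-1.98), and the others named here stayed beyond it, apart from the cytosolic form.

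Opposite ratios on the same hit protein were not limited to the inhibitors. Of 7187 hit proteins with at least 2 measured members, 453 had a member at least 4-fold higher, 1085 one at least 4-fold lower and 91 had both. Carbonyl reductase NADPH 1 was one of the 91, with 5 unigenes from -4.38 to 2.02. Succinyl-CoA:3-ketoacid-coenzyme A transferase, of ketone body use, had -2.73 and 3.22 in its 2 unigenes. L-threonine dehydratase catabolic TdcB ran from -2.18 to 3.31 over 5. The table does not tell alleles, related genes and assembly variants apart.

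Products with names of a bacterial or organelle type (2 of the 22 names say mitochondrial), filed under ascarids in the table, lay above the members' median for the most part. These 70 measured members had a median of 1.70 (quartiles 0.59 to 2.67), with 33 higher and 1 lower. Their counts summed to 35018 and 30426, and they held 0.0644% and 0.0848% of the members' counts. In 50S ribosomal protein L16 all 13 members shared 1 hit protein, and 10 were at least 4-fold higher, with sums of 551 and 2394. 30S ribosomal protein S19 had 9 members, 5 of them higher, with sums of 133 and 523. The abundant products of the set did not follow: elongation factor Tu had 6020 and 5246 (-0.20) and 2 unigenes of the clpx protease subunit had 13399 and 8050 in sum, with a median of -0.96. The names were grouped after values of these data were known.

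Members without a product name lay close to the named ones, with a median of -0.63 against -0.55. Single abundant ones departed from it. One had 29098 counts in A and 209314 in B (2.85, interval 2.82 to 2.87), one 1722 and 46502 (4.75), and one 107 and 18287 (7.4, interval 7.02 to 7.83), the last through an alignment to 13.9% of the 244-residue Anisakis protein above. In the lower direction one had 507167 and 114658 (-2.15), and a pair hitting the same 368-residue protein at 87.5% identity had 73271 and 14622 (-2.33) and 67130 and 15920 (-2.08).

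In the authors' deposited table, 0 ascarid-like unigenes had an adjusted p below 0.05; the lowest adjusted p was 0.0551 and the lowest unadjusted p 1.03e-06. The authors' deposited table gives an adjusted p below 1 to 16 members, and marks 1034 as up, 2277 as down and 24860 as neutral. Those p-values come from 1 library per condition.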

How the data were processed

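Libraries were made from poly(A) RNA (input 110 to 350 ng total RNA, amplified for 12 cycles, per the labels' protocols). The authors deposited 1 table of unigenes. Per the file headers it holds normalized counts for conditions A and B, a fold change as a ratio and as log2, unadjusted and adjusted p-values, a regulation mark, and for each best protein hit the percent identity; the submitters' processing notes name DESeq, without its role. The assembler, settings and versions are not stated there. A stray line (1) that names bowtie2, a read aligner, was left out.

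Dividing the normalized counts by their smallest step gave whole reads (all values up to 200 whole within 0.1 read); since counts are even more often than odd, intervals used reads divided by 2. With 1 library per condition no count model was run. Log2 ratios used a pseudocount of 1, a minimum mean of 10 and a 4-fold size rule. The scripts were tested on simulated data. Depth limits rare members: at a mean of 10 to 30 counts a 4-fold ratio can be counting error.

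Named members, 1 unigene per informative product name, are drawn from the 15 most abundant, the 12 highest and 12 lowest with at least 100 counts in the higher condition, ranked by the interval bound nearest 0, the 10 most abundant at least 4-fold higher and lower, and the 3 most abundant of each list with at least 5 members. Other unigenes of the inhibitors, carboxykinase, lipid carriers, yolk and antibacterial products, the families, the products without a name and those with opposite ratios were chosen after their values were seen. The members and lists were chosen with earlier results of these data known, and list patterns were corrected after the data were seen where they matched wrong names. Lists match product names only. Calculations used Python 3.11.15, numpy 2.4.6, pandas 2.3.3 and scipy 1.17.1.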

Additional observations from a re-analysis of the deposited data

How the results depend on the processing

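The count of members at least 4-fold higher in condition B (827), that at least 4-fold lower (2058) and the median log2 ratio (-0.578) were recomputed under each alternative, in that order. Scaling to equal totals over all unigenes gave 1258, 1178 and -0.192; over the members only 1535, 856 and 0.024, so that the median changed sign; the trimmed mean of M-values moved the median to -0.442 and both counts by less than 1.5 times. A pseudocount of 5 gave 509 higher and -0.559. A minimum mean of 100 gave 114, 1094 and -0.659, and of 1000 gave 29, 235 and -0.642. Summing counts per product name and organism gave 444, 1207 and -0.591, and per best-hit protein, added after seeing the data, 289 and 675. Hits of at least 70% identity gave 230, 389 and -0.516, Ascaris hits alone 349 and 889, and all others 478 and 1169; fewer unigenes enter these. A 2-fold rule gave 2156 and 8081, and a counting interval wholly beyond 4-fold 155 and 692. The members' share, 61.2% (A) and 52.6% (B), was 51.2% and 44.4% without the 10 most abundant members, and members were 21.0% of the measured unigenes by number. Under total scaling 9 of 55 list medians crossed 0, 38 of 42 named members at least 4-fold apart stayed so, and 47 of 201 named members came from below 0 to above it; with a minimum mean of 100, 6 list medians moved by more than 0.2. No paired analysis was possible because each condition has 1 library. With 1 library each, variation between worms cannot be separated from the conditions.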
